A study of Oryza sativa with 6 samples.

Results

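The features described here are 976 transcribed loci of the rice genome that lie outside the LOC_ annotation: all rows of the deposited count table whose identifier carries the authors' prefix for newly found loci instead of a LOC_ name. They make up 976 of the 56962 features in the table, beside 55801 LOC_ genes and 185 other gene models. The prefix is followed by a serial number, and each locus is called by that number here (locus 437, for example). RNA of rice (Oryza sativa) root tips was sequenced in 3 libraries of the mutant lad, which also goes by the name sr1, and 3 libraries of J10, the wild type. Both genotypes were grown at 25°C and sampled at 6 days, each library holding the last 0.5 cm of root. The series is titled for cell division and for the tracheary elements of the xylem, through which water moves, and the comparison of lad with J10 asks which transcripts differ between these root tips. The labels name neither the mutated gene of lad nor the number of plants in a library, nor do they say whether the libraries of a genotype came from separate plants, so p-values measure only the spread between these samples.

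LOC_ names belong to a genome-wide set of predicted and curated rice gene models. Such sets tend to miss genes with short coding sequences, genes whose exons were not joined, and transcripts without a coding sequence. When reads of an RNA sequencing experiment are assembled, some pile up where no gene model stands. A locus of that kind can be a missed protein-coding gene, a long noncoding RNA, a part of a neighbouring transcript that the model left out, or a transcribed repeat, and counts alone do not tell these apart.

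Library totals were 16405022 to 18816338 counts in lad and 19030866 to 20693114 in J10, so every lad library was shallower than every J10 library. As a check of the tissue, 6 genes of root development and transport were all expressed, with summed levels of 842 to 1039 CPM (counts per 1e6 counts, scaled by TMM factors, here and throughout) in lad and 400.4 to 579 CPM in J10. They did not move as one. The silicon transporter genes Lsi1 and Lsi2 were higher in lad (log2 fold changes of 1.25 and 1.52), whereas QHB, a gene of the quiescent centre, the auxin efflux carrier gene PIN2 and SHR1 were lower (-1.38, -0.99 and -0.52; adjusted p from 0.000143 to 0.00538 for these 5, edgeR quasi-likelihood). SCR1 was not called (adjusted p = 0.133). Of 6 genes of green shoot tissue, 2 were at 0 in all 6 libraries, the Rubisco small subunit gene LOC_Os12g17600 among them, and the 6 summed to 3.80 to 5.46 CPM in lad and 2.75 to 3.39 CPM in J10. One of them, the light-harvesting gene LOC_Os01g41710, was called higher, with 0.891 to 2.69 CPM in lad and 0 to 0.216 CPM in J10. In root tips taken whole, fewer cells of a type and less RNA per cell cannot be told apart, and the part of these genes' differences in the results that follow was not tested.

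The 976 loci were mostly short and close to annotated genes. Their deposited lengths ran from 200 to 10376 bases with a median of 886, against a median of 1383 for LOC_ genes. In 781 of them (80.0%) the deposited length was shorter than the span on the chromosome, as in a spliced transcript, against 77.7% of LOC_ genes. Lengths divisible by 3 made up 33.0% of the loci and 69.9% of LOC_ genes. The strands were even, with 490 loci on the plus and 486 on the minus strand. Every chromosome held some, from 63 on chromosome 12 to 117 on chromosome 1. Per 1000 LOC_ genes there were 14.6 on chromosome 7, the fewest, and 21.2 on chromosome 2, the most.

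Only 3 loci overlapped the span of a LOC_ gene on either strand. The gap to the nearest LOC_ gene was 1 to 1000 bases for 500 loci, 1001 to 5000 bases for 405 and over 5000 bases for 62, with a median of 915 bases, and 6 loci stood on unplaced sequence that carries no LOC_ gene. The nearest LOC_ gene lay on the same strand for 472 of the 967 loci with a gap above 0 (48.8%). Of these, 253 lay upstream of the gene's start and 219 downstream of its end. On the opposite strand, 258 faced the gene end to end and 237 start to start. Among themselves the loci formed 46 overlapping pairs, 34 of them on opposite strands. Both members passed the expression filter in 4 of those pairs, so overlap within the set touches few of the values given here. The sequences of these loci are not used here, and no source used here names the genome build of the coordinates.

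Loci outside the annotation took a small share of the reads, and a smaller one in lad. They held 1.49%, 1.52% and 1.48% of all counts in lad replicates 1, 2 and 3, against 1.70%, 1.81% and 1.74% in J10 replicates 1, 2 and 3. The genotypes did not overlap, and the means were 1.497% ± 0.0176 in lad and 1.75% ± 0.0556 in J10 (SD, n = 3 each; exact permutation test, two-sided, p = 0.1, the smallest that 3 against 3 allows). The difference was -0.251 percentage points, and without the 3 with the most counts (loci 437, 53 and 507) it was -0.0958. The number of loci with at least 1 count went the other way. Lad libraries held 911, 900 and 910 detected loci and J10 libraries 881, 853 and 870, although the lad libraries were shallower (exact permutation test, p = 0.1). The same direction was seen over the whole table, with 26920 to 27553 features detected in lad and 25401 to 25728 in J10. In all, 951 loci had a count in some library and 788 had counts in all 6. No source used here says how the authors found the loci, so the high share detected is not a result.

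Levels spanned more than 3 orders of magnitude. Of the 976 loci, 122 averaged at least 20 CPM, 27 of them at least 100 CPM, while 191 averaged 5 to under 20 CPM, 307 averaged 1 to under 5 CPM and 356 averaged less than 1 CPM over the 6 libraries. Expression was sufficient for a test in 744 loci, and the 232 others had at most 214 counts over the 6 libraries (median 21). The median level per length of the tested loci was 3.03 CPM per kilobase, against 8.92 CPM per kilobase for tested LOC_ genes. On that scale the highest was locus 507 with 1023 CPM per kilobase, followed by loci 53 and 437 with 877 and 856.

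Between the genotypes, 114 of the 744 tested loci were higher and 109 lower in lad, and 521 were not called (edgeR quasi-likelihood test, Benjamini-Hochberg adjusted p below 0.05 over all 22624 tested features). That is 30.0% of the loci, against 45.2% of all tested features. The higher ones were 15.3% of the loci, against 24.9% of all features, and the lower ones 14.7%, against 20.3%. Their median log2 fold change, lad minus J10, was 0.04, and that of all features was 0.02. The 3 lad values lay wholly above or below the 3 J10 values in 329 loci (44.2%), against 56.8% of all features. Called changes of 2-fold or more were found in 84 loci upward and 34 downward, against 15.2% and 4.73% of all features. At 8-fold or more there were 34 upward, against 4.98% of all features, and 1 downward, against 0.172%. Of the 744, 39 passed the filter through their lad libraries alone and 6 through their J10 libraries alone, and 36 and 5 of these were called, which their selection favours.

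**Figure D1:**
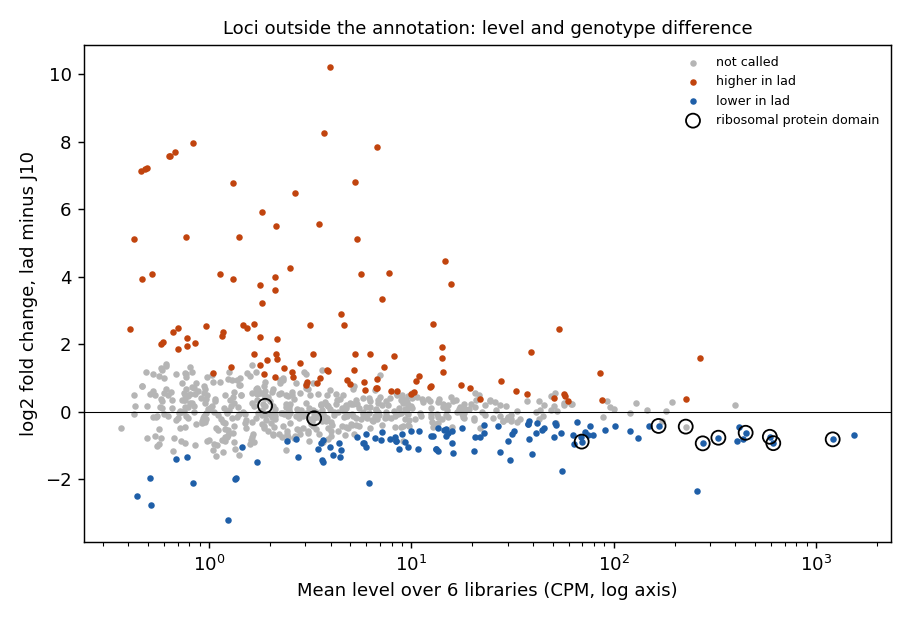
Each point is 1 of the 744 tested loci, with its mean level over the 6 libraries on a log axis in CPM and its log2 fold change (lad minus J10) on the vertical axis; circles mark the 11 loci with a ribosomal protein domain. Large increases sit at low levels, and most called loci above 100 CPM lie below 0.

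Higher and lower loci stood at different levels, and so did higher and lower LOC_ genes. Among the 122 loci of 20 CPM or more, 51 were lower and 14 higher in lad, and among the 27 of 100 CPM or more, 16 were lower and 2 higher. LOC_ genes of 20 CPM or more were lower in 29.0% and higher in 23.3% of cases, and LOC_ genes of 100 CPM or more were lower in 41.5% and higher in 17.6%. In the range of 1 to under 5 CPM, 18 of 305 loci were lower and 47 higher (5.9% and 15.4%). LOC_ genes of that range leaned the same way, with 9.98% lower and 28.5% higher. There 21.3% of the loci were called, against 38.5% of LOC_ genes of the same range, and from 5 to under 20 CPM it was 34.6% against 43.6%. At 20 CPM or more the shares were 53.3% and 52.3%. The 14 higher loci of 20 CPM or more were 7 without J10 replicate 3, 9 without lad replicate 1 and 23 without J10 replicate 1.

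**Figure D2:**
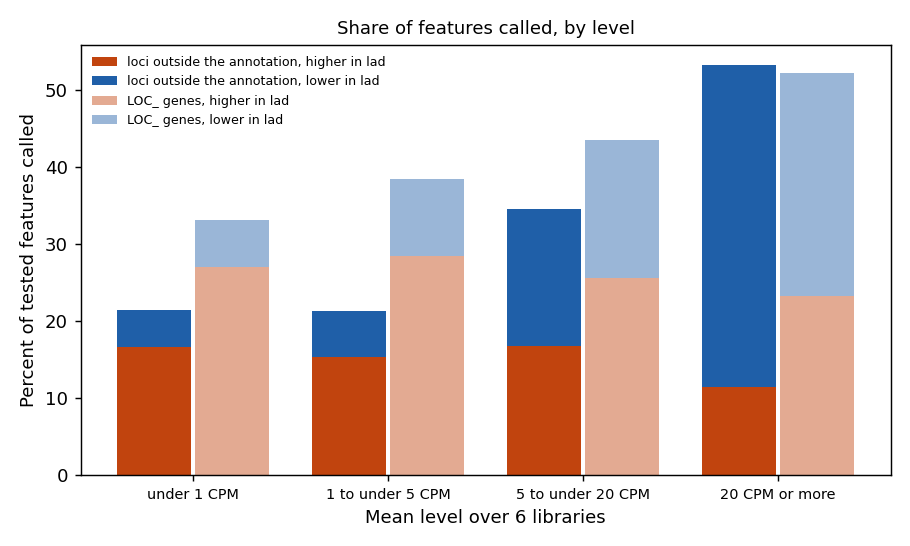
Bars give the percent of tested features called higher (red, below) or lower (blue, above) in lad, for loci outside the annotation (left, dark) and LOC_ genes (right, pale), in 4 ranges of mean level. The loci stand below the LOC_ genes in the 3 lower ranges and beside them at 20 CPM or more, where 41.8% of the loci were lower in lad.

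Protein domains were recorded for 104 loci (10.7%), and the most abundant of these encode ribosomal proteins, the structural parts of the translation machinery, several of them very short. Of 11 loci with a ribosomal protein domain 8 fell in lad, 0 rose and 3 were not called, and the median log2 fold change was -0.75. Over all tested features 20.3% were lower and 24.9% higher. Of the 11 loci, 8 averaged at least 100 CPM, a level at which 41.5% of LOC_ genes were lower. Among LOC_ genes whose description names a ribosomal protein, 187 of 228 tested fell and 0 rose, and the median was -0.70. Copies of a ribosomal protein gene can share reads, so the split between loci and LOC_ genes of a family is uncertain.

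Locus 53 (chromosome 1, 38968252 to 38971166, plus strand), with the domains of ribosomal proteins L5 and L18, had 845, 947 and 828 CPM in lad and 1258, 1845 and 1531 CPM in J10. All lad values lay below all J10 values, and the log2 fold change was -0.82 ± 0.16 (SE; adjusted p = 0.00175, edgeR quasi-likelihood). Locus 507 (chromosome 3, 32398264 to 32399894, minus strand) carries the domain of L41, one of the smallest proteins of the large subunit. Its levels were 389, 465 and 413 CPM in lad and 662, 973 and 788 CPM in J10 (-0.94 ± 0.15, adjusted p = 0.000714, edgeR). A second L41 locus, 800 (chromosome 7, 2092658 to 2093790, minus strand), showed a like difference, with 184, 212 and 170 CPM in lad and 284, 453 and 349.5 CPM in J10 (-0.94 ± 0.17). Locus 597 (chromosome 4, 25751263 to 25753415, minus strand), with the L14 domain, had 413.5, 498 and 413 CPM in lad and 613, 874 and 736 CPM in J10 (-0.75 ± 0.15). For locus 584 (chromosome 4, 18369279 to 18371149, minus strand), with the L29 domain, the values were 353, 391 and 314 CPM in lad and 439, 660.3 and 537 CPM in J10 (-0.63 ± 0.16). In each of these 5 loci the genotypes did not overlap, and J10 replicate 2 was the highest library.

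The remaining lower loci of this group were 586 with the S11 domain (243 ± 29.6 CPM in lad and 416 ± 78.4 CPM in J10, SD, n = 3 each), 820 with the S17 domains (48.8 ± 9.01 and 90.3 ± 28.0 CPM) and 818 with the L38e domain (142 ± 23.1 and 191 ± 30.4 CPM), each value in lad before that in J10. Locus 818 overlapped between the genotypes (adjusted p = 0.0403, edgeR), and its call was lost without lad replicate 1 or 3 or J10 replicate 2 or 3 (0.0889 to 0.150) and with library totals as the scale (0.0774). Of the 3 that did not pass, locus 376 with the L39 domain had 192 ± 37.7 CPM in lad and 262 ± 49.2 CPM in J10 (adjusted p = 0.0525, edgeR) and was called lower in 7 of 15 other settings, DESeq2 and limma-voom among them (0.0153 to 0.0472 in those 7). Loci 903 and 784, with the L38e and L44 domains, averaged below 4 CPM in both genotypes. Translation factors followed in part: the elongation factor Ts locus 892 had 48.4 ± 9.02 CPM in lad and 77.8 ± 10.6 CPM in J10, a log2 fold change of -0.68, and locus 321, with the N-terminal domain of subunit 8 of initiation factor eIF3, had 87.0 ± 16.3 and 117 ± 11.99 CPM, a change of -0.43. The call for locus 321 was lost without lad replicate 1 or 3 or J10 replicate 2 or 3 (adjusted p from 0.0685 to 0.119, edgeR) and with library totals as the scale (0.0673). Locus 51, with a tRNA synthetase domain, was not called (16.3 ± 0.140 CPM in lad and 14.1 ± 3.42 CPM in J10). Loci 892, 321 and 51 are too few to be set apart from the 20.3% of all tested features that were lower.

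**Figure D3:**
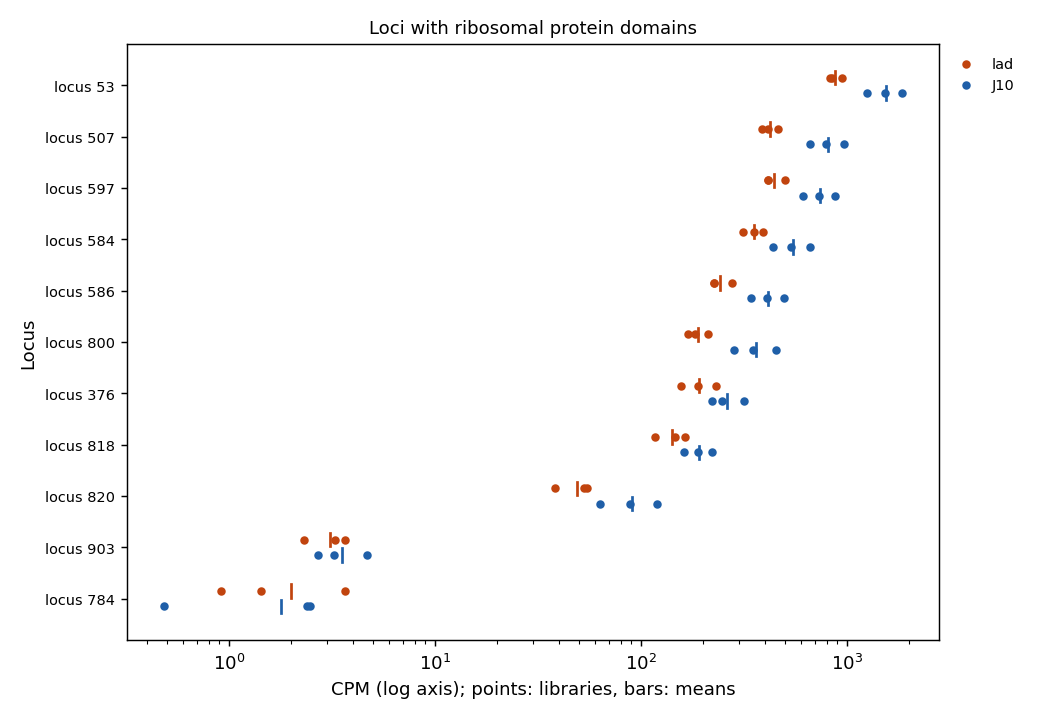
The 11 loci with ribosomal protein domains in order of level: points are the 3 libraries of lad (red, above) and of J10 (blue, below), bars are means, on a log axis in CPM. In the 6 most abundant loci all lad points lie left of all J10 points.

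Among the 27 loci of 100 CPM or more, 9 carry no domain, and 6 of these were lower and 0 higher in lad. Over all tested features 20.3% were lower and 24.9% higher, and over LOC_ genes of 100 CPM or more 41.5% and 17.6%. The 9 loci are too few to be set apart from LOC_ genes of that level. The most abundant of all the loci was among the 9. Locus 437 (chromosome 3, 4116853 to 4119822, plus strand, 1797 bases in a span of 2970) had 1113, 1344 and 1067 CPM in lad and 1505, 2361 and 1839 CPM in J10. The genotypes did not overlap, and the log2 fold change was -0.70 ± 0.18 (adjusted p = 0.00933, edgeR). Its end faces that of LOC_Os03g08070, described by a P-type ATPase domain, 123 bases away, which had 27.3 CPM in lad and 22.2 CPM in J10. Locus 358 (chromosome 2, 24553708 to 24554808, plus strand) had 241.5, 356 and 359 CPM in lad and 581.5, 551.5 and 536 CPM in J10 (-0.80 ± 0.16, adjusted p = 0.00189, edgeR). The largest difference in this range was that of locus 679, described with the other large decreases.

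Chromatin and division are represented by 7 loci, of which 1 fell, 0 rose and 6 did not pass. Over all tested features 24.9% were higher and 20.3% lower, and these 7 loci are too few to be set apart from those shares. The core histone locus 543 is the most abundant, with 350.0, 449 and 475 CPM in lad and 385, 363 and 371.5 CPM in J10. Its lad values reached both below and above those of J10, and it was not called (adjusted p = 0.276, edgeR). Loci for Spc25, a part of the kinetochore, and for TPX2, a spindle protein, were not called either (locus 654, 11.4 ± 0.613 CPM in lad and 14.0 ± 1.32 CPM in J10; locus 77, 12.99 ± 1.67 and 12.01 ± 1.13 CPM). The one lower locus was 235, with the domain of the chromatin-associated protein KTI12 (23.1 ± 1.41 CPM in lad and 30.8 ± 2.42 CPM in J10), whose call was lost without lad replicate 1. Of 5 loci for mitochondrial import and respiration 1 rose: locus 114, for a small Tim10-type import chaperone, had 24.7 ± 3.83 CPM in lad and 18.9 ± 0.629 CPM in J10. Its adjusted p was 0.0483 (edgeR) and passed the threshold in only 4 of the 15 other settings. The 5 mitochondrial loci are likewise too few to be set apart from all features. The cytochrome oxidase subunit VIb locus 594 stood at 183 ± 12.1 CPM in lad and 182 ± 20.2 CPM in J10.

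Of 4 loci with domains common in defence proteins 3 were tested and were higher in lad, and the fourth was too low for a test and lower in its mean. Over all tested features 24.9% were higher in lad, and a group this small, put together with earlier results known, cannot be set apart from that share. Locus 93 (chromosome 1, 24390690 to 24391804, minus strand), for a protease inhibitor of the potato inhibitor I family, had 103, 109 and 61.9 CPM in lad and 10.5, 23.1 and 16.3 CPM in J10. The genotypes did not overlap, with a log2 fold change of 2.46 ± 0.28 (adjusted p = 5.55e-05, edgeR). Locus 956 (chromosome 9, 9666892 to 9673006, minus strand), with the NB-ARC domain of plant immune receptors, had 19.9, 17.1 and 22.4 CPM in lad and 9.91, 8.05 and 8.53 CPM in J10 (1.17 ± 0.16). Locus 105, with a jacalin-like lectin domain, had 4.13 ± 1.10 CPM in lad and 1.53 ± 0.144 CPM in J10. The untested one was the lectin locus 901 (0.127 ± 0.0247 CPM in lad and 0.625 ± 0.359 CPM in J10).

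The groups of transcription factor, transporter and acyltransferase loci had 2 to 5 tested members each, too few to be set apart from the 24.9% of all features that were higher in lad. Of 6 loci with the domain of a DNA-binding regulator, 5 were tested, 2 rose, 0 fell and 3 did not pass. The WRKY locus 635 is among the largest increases. Locus 148, with LSD1-type zinc fingers, a domain of cell death regulators in Arabidopsis, had 57.8 ± 4.14 CPM in lad and 43.7 ± 1.44 CPM in J10, a call lost without J10 replicate 3, while the K-box locus 338 of the MADS class stood at 148 ± 9.81 and 144.5 ± 14.4 CPM. Of 3 membrane transporter loci 2 rose: locus 380, of the EamA family, had 7.97 ± 1.67 CPM in lad and 1.34 ± 0.349 CPM in J10, and locus 116, of the POT family of peptide and nitrate transporters, had 3.35 ± 1.51 and 0.245 ± 0.217 CPM. All J10 values of locus 116 lay below the filter cutoff of about 0.528 CPM, so it passed only through its lad libraries. Its call as higher follows in part from that selection. Locus 55 (chromosome 1, 40508580 to 40511163, plus strand), of the BAHD acyltransferase family, had 27.6, 12.5 and 44.5 CPM in lad and 1.70, 0.941 and 1.19 CPM in J10. Lad values differed by more than 3-fold among themselves, yet all lay above those of J10 (4.46 ± 0.45, adjusted p = 2.66e-05, edgeR). The other acyltransferase, locus 102, was not called.

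Loci with parts of mobile elements are too few to be set apart from all tested features. Of those features 24.9% were higher and 20.3% lower in lad. Of 8 loci with a transposase, reverse transcriptase or integrase domain 7 were tested, 1 rose, 0 fell and 6 did not pass. The one that rose, locus 364 (chromosome 2, 27294582 to 27296966, plus strand), with a reverse transcriptase domain, had 6.05, 4.93 and 5.33 CPM in lad and 0.925, 0.366 and 1.46 CPM in J10 (2.57 ± 0.41). Its end lies 4 bases from that of LOC_Os02g45040 on the opposite strand, described by a GAG-pre-integrase domain, which rose as well (8.17 CPM in lad and 1.29 CPM in J10). The transposase locus 809, of the En/Spm family, had 17.1 ± 2.72 CPM in lad and 19.1 ± 1.48 CPM in J10. In the group for protein turnover, 7 of 8 loci were tested and 2 rose, the RING finger locus 408 (2.94 ± 1.04 CPM in lad and 0.631 ± 0.146 CPM in J10) and the ubiquitin locus 762 (0.693 ± 0.0365 and 0.122 ± 0.168 CPM). The call for locus 762 was lost in 7 of 14 other settings. All its J10 values lay below the filter cutoff of about 0.528 CPM, so it passed only through its lad libraries. Its call as higher follows in part from that selection. The 7 tested turnover loci are likewise too few to be set apart from the 24.9% of all features. Over all 104 loci with a domain 89 were tested, 18 rose and 20 fell, which is 42.7% called, against 45.2% of all tested features. Without a domain it was 96 higher and 89 lower of 655, which is 28.2%. Tested loci with a domain had a median level of 15.2 CPM and those without one 3.28 CPM. The part of level in this contrast was not tested.

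The 8 largest increases among loci of at least 1 CPM started from almost no counts in J10. Locus 319 (chromosome 12, 26946901 to 26947116, minus strand), an unspliced locus of 216 bases, had 8.59, 7.54 and 7.56 CPM in lad and 0 in all 3 J10 libraries. With J10 given a floor of 3 counts in sum, it was at least 150-fold higher in lad. Its nearest LOC_ gene, LOC_Os12g43440, lies 9026 bases away on the same strand. Locus 770 (chromosome 7, 3633977 to 3635214, plus strand) had 8.97, 5.70 and 7.40 CPM in lad and 0.0514, 0 and 0 CPM in J10, where it rests on 1 count. The ratio was 423, with a 95% counting interval from 75.5 to 16760. Its neighbour LOC_Os07g07300, which starts 3157 bases away in the other direction, was likewise at 0 in J10 and at 5.48 CPM in lad.

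Locus 431 (chromosome 2, 32640979 to 32641603, minus strand) had 13.7, 11.1 and 15.8 CPM in lad and 3 counts in J10, a ratio of 259 (88.3 to 1260). Locus 843 (chromosome 8, 7466005 to 7468823, plus strand) had 2.86, 2.26 and 2.74 CPM in lad and 1 count in J10, a ratio of 150.5 (26.6 to 5984). Locus 9 (chromosome 1, 4668003 to 4670239, plus strand) had 4.38, 3.62 and 7.87 CPM in lad and 3 counts in J10, a ratio of 102 (34.7 to 499). These 3 carry no domain, and in each the lowest lad library stood far above the highest J10 library. The WRKY locus 635 (chromosome 5, 14948436 to 14953146, plus strand), for a transcription factor of a class with many defence regulators, had 4.70, 3.27 and 2.79 CPM in lad and 3 counts in J10, a ratio of 68.3 (23.0 to 334). Locus 753 (chromosome 6, 22846229 to 22847038, minus strand) had 10.1, 6.35 and 14.9 CPM in lad and 0.206, 0 and 0.0540 CPM in J10, a log2 fold change of 6.80 ± 0.59. Locus 334 (chromosome 2, 7446674 to 7448699, plus strand) had 8.43, 5.58 and 6.47 CPM in lad and 0.103, 0.261 and 0.0540 CPM in J10 (5.54 ± 0.45). Adjusted p-values of these 8 lay between 5.75e-07 and 3.05e-05 (edgeR quasi-likelihood). All their J10 values lay below the filter cutoff of about 0.528 CPM, so the 8 passed it only through their lad libraries. Their p-values and the gaps between their genotypes follow in part from that selection and are no separate support.

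With so few J10 counts the size of these folds depended on single J10 libraries, while their direction was fixed by how they were chosen. Leaving out J10 replicate 1 gave a ratio of 512.5 for locus 431 and 45.01 for locus 635, bounds of at least 93.0-fold for locus 770 and at least 33.1-fold for locus 843, and a log2 fold change of 8.26 for locus 753. For locus 319 the bound was 99.2 without J10 replicate 1 and 100.1 without J10 replicate 2. Without J10 replicate 2 the ratio was 172 for locus 431, 281.5 for locus 770, 100.1 for locus 843, 204 for locus 9 and 136 for locus 635, and the log2 fold change of locus 334 was 6.30. The intervals and bounds cover counting error only, because they pool the libraries of a genotype and leave out the spread between them. Copies made by PCR are not separate molecules, so even the counting error can be understated.

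Over all 976 loci, 38 had counts in lad and 0 in J10, the named locus 319 among them, and 12 had counts in J10 and 0 in lad. Above the floor of 3 counts these were 32 and 5. Passing the filter were 8 of the 38, which they could do only through their lad libraries, so that their call as higher follows from the selection. Their bounds ran from 17.8-fold for locus 391 to 150-fold for locus 319. None of the 12 passed the filter. The matching numbers over all features were not counted, but more features of the whole table were detected in lad (26920 to 27553) than in J10 (25401 to 25728).

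**Figure D4:**
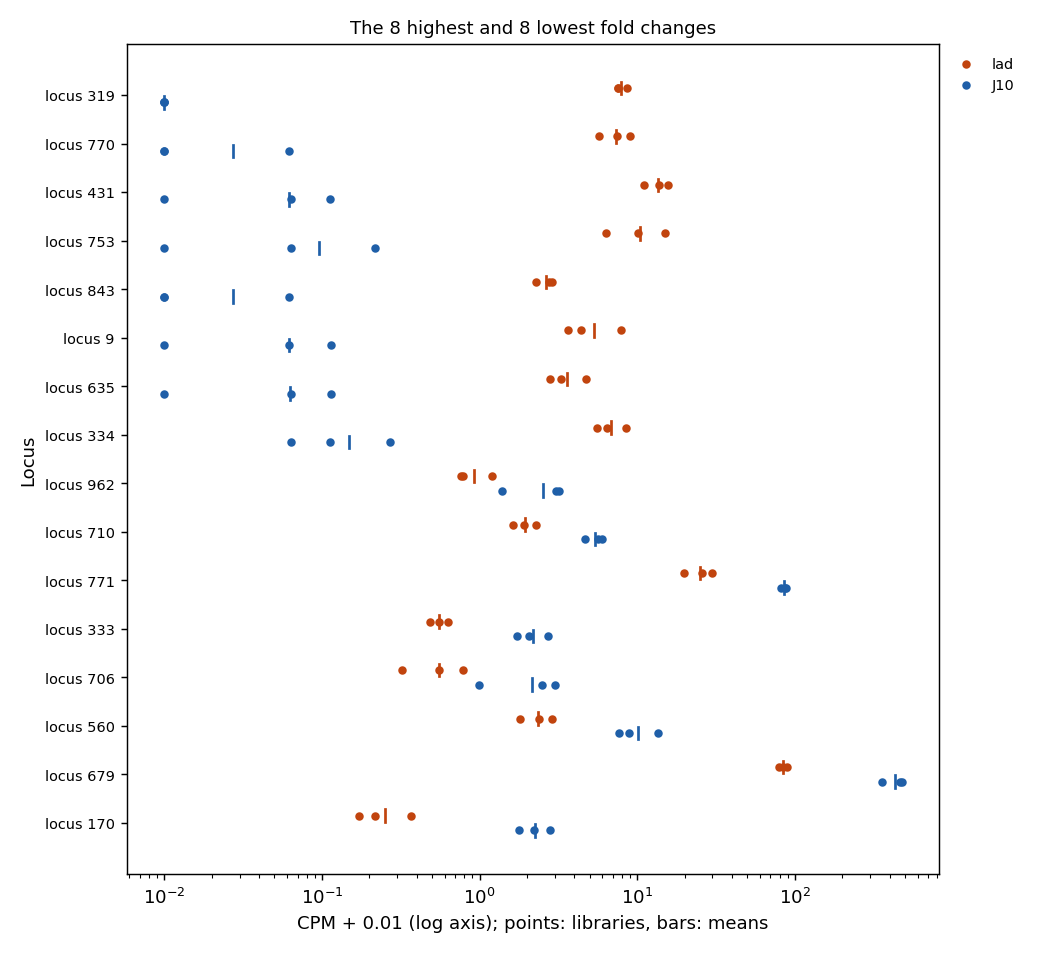
Levels of the 16 loci at the extremes of fold change, 8 upward and 8 downward: points are the 3 libraries of lad (red, above) and of J10 (blue, below), bars are means, with 0.01 added to each CPM so that zeros show at the left edge of the log axis. The 16 loci were chosen among those without overlap between genotypes; among the lower ones locus 679 has the highest level.

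Of the 8 largest decreases none carries a domain. Locus 679 (chromosome 5, 26897890 to 26898818, minus strand, 549 bases in a span of 929) was the most abundant, with 84.4, 89.3 and 78.9 CPM in lad and 360, 476 and 464 CPM in J10. The log2 fold change was -2.36 ± 0.14 (adjusted p = 6.97e-07, edgeR), and a gap between the genotypes was a condition of the choice. Its nearest LOC_ gene, LOC_Os05g46420, starts 1309 bases away in the other direction and had 3.21 CPM in lad and 2.80 CPM in J10. Locus 771 (chromosome 7, 4947599 to 4948859, plus strand) had 19.9, 25.7 and 29.7 CPM in lad and 87.0, 87.3 and 82.1 CPM in J10 (-1.77 ± 0.14). It lies 914 bases upstream of LOC_Os07g09400 on the same strand, which was not called (44.8 CPM in lad and 50.8 CPM in J10, adjusted p = 0.224, edgeR).

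The lowest fold change was that of locus 170 (chromosome 10, 14481650 to 14483487, minus strand), with 0.162, 0.356 and 0.207 CPM in lad and 2.21, 2.77 and 1.78 CPM in J10 (-3.20 ± 0.48). Locus 560 on chromosome 4 had 1.78, 2.85 and 2.38 CPM in lad and 7.65, 13.6 and 8.91 CPM in J10 (-2.10 ± 0.28). The 4 others were low throughout. Locus 333 averaged 0.546 ± 0.0731 CPM in lad and 2.17 ± 0.505 CPM in J10, locus 706 0.541 ± 0.231 and 2.15 ± 1.04 CPM, locus 710 1.93 ± 0.329 and 5.42 ± 0.711 CPM, and locus 962 0.907 ± 0.244 and 2.53 ± 0.996 CPM. Adjusted p-values of the 8 lay between 6.97e-07 and 0.0165 (edgeR quasi-likelihood). Being called and free of overlap was a condition of the choice, so these p-values and gaps are no separate support. All lad values of locus 170 lay below the filter cutoff of about 0.528 CPM, so it passed only through its J10 libraries. The call for locus 962 was lost when lad replicate 1 or 3 or J10 replicate 2 or 3 was left out (adjusted p from 0.0579 to 0.0669), and that for locus 706 without lad replicate 3 (0.0508).

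Of the 4 longest tested loci 3 rose. So few cannot be set apart from the 24.9% of all features that were higher in lad. Locus 562 (chromosome 4, 34473898 to 34488060, plus strand, 10376 bases) has no domain and rose, with 74.6, 61.9 and 65.2 CPM in lad and 45.7, 46.8 and 48.2 CPM in J10 (0.52 ± 0.11, adjusted p = 0.0026, edgeR). Locus 929 (chromosome 9, 16059474 to 16074476, plus strand, 7915 bases), with a DDHD domain as found in some phospholipases, was the larger of the 2 increases at 100 CPM or more. Its levels were 442, 355 and 405 CPM in lad and 176, 94.3 and 130 CPM in J10 (1.59 ± 0.20, adjusted p = 0.000117, edgeR). Locus 435, with the domain of 1,3-beta-glucan synthase, the enzyme that makes callose, was the other (256 ± 6.70 CPM in lad and 198 ± 25.3 CPM in J10, 0.37 ± 0.12), and its call was lost without lad replicate 1 or 3 or J10 replicate 2 or 3 (adjusted p from 0.0659 to 0.148, edgeR) and with upper-quartile factors (0.0518). Locus 626 (chromosome 5, 8264630 to 8291011, plus strand), with the FKBP12-rapamycin binding and FATC domains of the TOR kinase, a regulator of growth, had 104, 95.6 and 94.3 CPM in lad and 80.6, 74.9 and 74.5 CPM in J10 (0.36 ± 0.10, adjusted p = 0.0131, edgeR). Its call was lost without lad replicate 1 (0.0579) or J10 replicate 3 (0.104). Locus 870 (chromosome 8, 27761849 to 27794173, plus strand), of the endomembrane protein 70 family, was not called, with 157 ± 12.8 CPM in lad and 191 ± 14.8 CPM in J10 (adjusted p = 0.0605, edgeR). It was called lower with upper-quartile factors, with DESeq2 and without J10 replicate 1 (0.0288 to 0.0418).

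Locus 870 is also 1 of the 3 loci that share bases with a LOC_ gene. It spans 2 LOC_ genes on the opposite strand. Locus 851 (chromosome 8, 15722987 to 15742110, plus strand) overlaps 1 LOC_ gene on the opposite strand and rose, with 13.1 ± 2.10 CPM in lad and 1.30 ± 0.115 CPM in J10 (3.33 ± 0.23, adjusted p = 1.98e-06, edgeR). The overlapped gene, LOC_Os08g25839, rose as well, with 11.7 CPM in lad and 0.0174 CPM in J10. Locus 767, with a span of 99829 bases, takes in 9 LOC_ genes on its own strand and 8 on the other, and was not called. Whether the counting used strand is not stated, so reads of these loci and of the genes across from them cannot be told apart.

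The share of loci called is given here by position, without a test between the classes. Within 1 to 1000 bases of a LOC_ gene 96 of 381 tested loci were called (25.2%), from 1001 to 5000 bases 110 of 318 (34.6%), and beyond 5000 bases 16 of 40 (40.0%), against 45.2% of all features at any position. When only LOC_ genes on the same strand counted as neighbours, the shares were 20.3%, 35.4% and 30.5%, in another order. By orientation, loci upstream of a LOC_ gene on the same strand had 39 higher and 15 lower among 181, and those downstream 24 and 24 among 171. Loci facing a LOC_ gene end to end had 27 higher and 42 lower among 200, and those start to start 23 and 28 among 187. Over the 4 orientations higher loci were 12.3% to 21.55%, against 24.9% of all features. Lower loci were 8.29% to 21%, against 20.3%. By length, 11 of 71 tested loci under 500 bases were called (15.5%), against 30.3% to 33.3% in the 3 longer classes. LOC_ genes under 500 bases were called in 44.0% of cases and those of the longer classes in 42.8% to 51.2%. Tested loci under 500 bases had a median level of 1 CPM, and those of the longer classes 1.725, 4.425 and 10.8 CPM. For tested LOC_ genes under 500 bases it was 2.835 CPM. The part of level in these contrasts was not tested. Of the 224 loci under 500 bases, 153 were too low for a test. Loci on the plus and the minus strand were called in 30.9% and 29.0% of cases, and spliced and unspliced loci in 29.5% and 32.3%.

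Whether a locus moved with its neighbour was tested on the difference between the genotype effects of the 2 (limma on log2 CPM of the feature minus that of its nearest tested LOC_ gene, adjusted over the pairs of all 22604 features). The difference passed in 247 of 742 loci (33.3%), against 43.8% of all features. In 108 the locus was the higher of the pair and in 139 the lower. The median size of the difference was 0.67 on the log2 scale for the loci and 0.67 for all features. Where both were called by the genotype test, 75 of 110 moved the same way (68.2%), 47 up and 28 down, against 60.1% of 4632 such pairs of LOC_ genes, a difference that was not tested. In 16 the locus was higher and the gene lower, and in 19 the reverse. A further 113 called loci had a neighbour that was not called.

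For 58 pairs the locus lay 1 to 1000 bases downstream of the gene on the same strand, and 12 of these (20.7%) differed. Both were called in 5 of the 58, of which 2 moved the same way, and the correlation of fold changes was 0.53. In the other 3 orientations at that distance 27.8% to 33.8% differed. There 3 of 4, 11 of 17 and 4 of 7 pairs with both called moved the same way, with correlations of 0.07 to 0.19. Beyond 1000 bases 31.6% to 41.4% differed. Whether a transcript of the gene runs on into a locus downstream was not tested. These shares were not tested against each other.

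**Figure D5:**
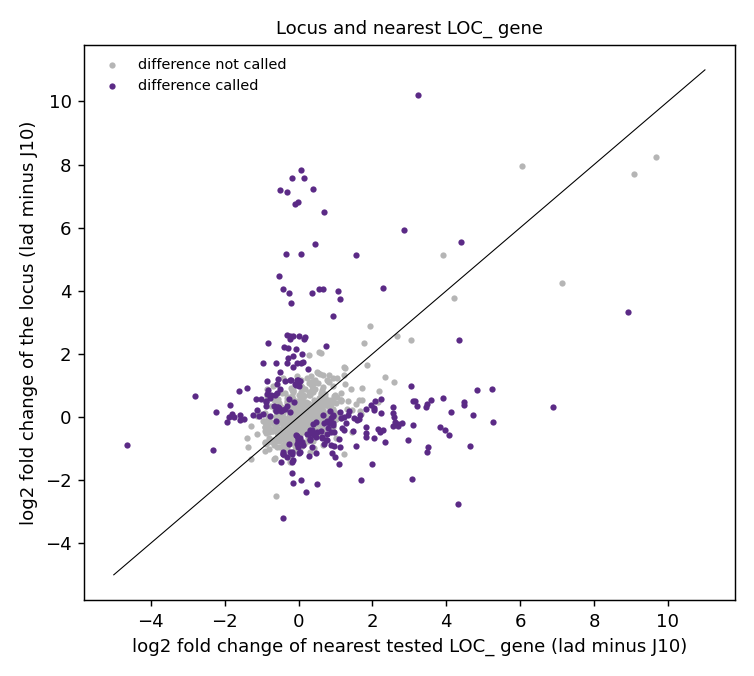
Each point is 1 of 742 loci, with the log2 fold change (lad minus J10) of its nearest tested LOC_ gene on the horizontal and its own on the vertical axis; the line marks equal values and purple points are the 247 whose difference was called. Called points form one arm of loci that rose beside a gene near 0 and another of loci near 0 beside a gene that rose.

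The largest differences from a neighbour were of both kinds. Loci 431 and 753 rose, and their nearest tested genes were not called: LOC_Os02g53330, 1749 bases from locus 431, and LOC_Os06g38550, 6689 bases from locus 753, had log2 fold changes of 0.06 and -0.02, and the differences were 6.40 ± 0.32 and 5.84 ± 0.53 (SE). The other 3 were not called, and their neighbours rose. Of these, locus 94 was called higher with the replicate number as a block (adjusted p = 0.0346, edgeR) and without J10 replicate 1 (0.0345). Locus 623, with 0.811, 1.31 and 0.673 CPM in lad and 1.85, 1.25 and 2.11 CPM in J10, lies 2520 bases downstream of LOC_Os05g10650, described by a phosphofructokinase domain, which had 24.8 CPM in lad and 0.996 CPM in J10 (difference -5.25 ± 0.59). Locus 94, with 55.4, 43.2 and 43.1 CPM in lad and 45.8, 30.1 and 38.1 CPM in J10, has as its nearest tested gene LOC_Os01g43650, a WRKY gene 6911 bases away with 7.05 CPM in lad and 0.0525 CPM in J10 (-5.15 ± 0.34). Locus 799, with 2.86, 2.91 and 3.57 CPM in lad and 2.98, 3.14 and 4.32 CPM in J10, lies 4034 bases from the NAC gene LOC_Os07g04560, which had 9.06 CPM in lad and 0.228 CPM in J10 (-4.98 ± 0.46). Adjusted p-values of the 5 differences lay between 5.41e-07 and 5.62e-05 (limma, over all pairs), and differences at low counts are drawn toward 0 by the prior count of 2.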

How the data were processed

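The authors deposited 1 table of counts per feature for the 6 libraries, with coordinates, strand, length in bases and, for part of the features, a domain description. Values are whole and column totals differ, so they were taken as not normalized. The submitters' processing notes list Bowtie 0.12.2 beside mm8 and mm9, which are mouse builds and cannot have given rice loci. The assembler, the counter, its strand setting and the rice build are not stated.

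The analysis used R 4.3.3 and edgeR 4.0.16: expression filter by genotype (about 0.528 CPM in at least 3 libraries, 22624 features kept), TMM factors (0.925 to 1.04), quasi-likelihood test with genotype as the only term on the whole table, Benjamini-Hochberg adjustment over all tested features, threshold 0.05, two-sided. Fold changes are log2, lad minus J10; standard errors divide the size of the fold change by the root of F. CPM are scaled by TMM factors. A feature's difference from its nearest tested LOC_ gene was tested with limma 3.58.1 (prior count 2), also over the whole table. Distances run from edge to edge of the deposited spans. The procedures were tested on simulated data. Alternatives were other factors, filters, DESeq2 1.42.0, limma-voom, a replicate block and leaving out each library.

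Loci named are the 8 highest and 8 lowest fold changes among called loci of at least 1 CPM whose genotypes did not overlap, the 6 of highest level, the 4 longest tested, the 5 with the largest called difference from a neighbour and the 4 most abundant with a domain; others were named after their values were seen, to describe domain groups. Members, groups and lists were chosen with earlier results of these data known.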

Additional observations from a re-analysis of the deposited data

How the results depend on the processing

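The number of loci called between the genotypes was 223. It was 207 to 250 under the other factors, filters and tests, 237 with the replicate number as a block, 212 for loci of at least 500 bases, and 171 to 277 when 1 library was left out (lowest without J10 replicate 3, highest without J10 replicate 1). Higher loci numbered 85 to 158 and lower loci 81 to 125 over all these settings. The direction of the majority depended on the scaling: 51.1% of called loci were higher in lad, against 44.9% with upper-quartile factors and 60.1% with library totals, which moved the median of all features by 0.09 on the log2 scale. Same-numbered libraries of the 2 genotypes did not deviate together (correlations of 0.06, 0.13 and -0.03 for numbers 1, 2 and 3), so the numbers were not taken as pairs.

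Taking only same-strand LOC_ genes as neighbours gave 37 called loci at 1 to 1000 bases in place of 96 and 74 beyond 5000 bases in place of 16, because fewer loci then count as near. Leaving out 1 library gave 69 to 119, 87 to 135 and 11 to 20 called loci in the 3 classes of distance. Loci that differed from their neighbour numbered 247, and 187 to 285 over the alternatives. The difference in the share of counts was -0.275 to -0.221 percentage points, and that in detected loci 31.5 to 45.5, when 1 library was left out. The 11 ribosomal loci held 7 to 9 lower and 0 higher calls, a check added after the values were seen. For the 29 loci named by the rule, 434 refits reversed no direction, 7 lost and 5 gained a call; for those chosen as the largest changes the direction follows from the choice. For 60 loci described by domain, level or overlap, some of them among the 29, 894 refits lost 36 calls and gained 12. Called loci kept their sign there, and 13 loci that were not called changed sign in 38 refits, among them loci 338, 594, 784 and 903.

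Precision is limited by 3 libraries per genotype and, for the 356 loci under 1 CPM, by depth.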
